A study of Mus musculus with 12 samples.

Results

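Tom+ and Tom- hepatocytes sorted from the livers of CCl4-treated p16-Tom mice were compared across all expressed genes. The aim was to describe which functions differed between the 2 fractions, and not only the markers of liver zones. The study states that the uneven location of Tom+ cells across zones kept its bulk RNA-seq from separating their own features from zonation. The same limit holds here, and no change below was tested apart from zone. The comparison was set by the labels: 3 Tom+ and 3 Tom- libraries, joined in pairs by replicate number, which are 6 of the 12 libraries of the series. Of the 54839 features in the table, 16294 passed the filter on low counts and were tested. All mice were male and on a C57BL/6 background, and their ages were not given in the sources used here. They were heterozygous for both transgenes, on the p16-CreERT2 and R26-CAG-LSL-tdTomato-WPRE alleles. They received CCl4 in corn oil by injection at 1 mL/kg during 4 weeks and tamoxifen at 80 mg/kg, which the Tom- libraries share with the Tom+ libraries. The other 6 libraries came from mice given corn oil without CCl4 and were left out of the main fit, because the reporter went against the labels of 2 of them. They are used here only for the range of a level and in the alternative fits over 12 libraries. Hepatocytes were pelleted at low speed after collagenase perfusion, and live cells were sorted by tdTomato fluorescence. The reporter records the activity of the p16Ink4a promoter at the time of tamoxifen and not at the time of the sort, and the sort has no hepatocyte marker of its own, so that other cells can be carried along.

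p16Ink4a, a product of the Cdkn2a locus, inhibits the cyclin-dependent kinases that drive cells out of G1 and is widely used as a marker of senescent cells. Hepatocytes differ in function along the axis from the portal to the central vein. Those around the central vein (zone 3) receive Wnt signals from the central vein endothelium, take up ammonia into glutamine, synthesize bile acids and carry most of the xenobiotic metabolism. Those around the portal vein (zone 1) carry most of the gluconeogenesis, the urea cycle and the secretion of plasma proteins. CCl4 is activated by the cytochrome P450 enzyme CYP2E1, which zone 3 hepatocytes hold, so that its injury falls on zone 3.

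Levels are CPM, the counts of a gene scaled to a common TMM library size, printed in the order of replicates 1, 2 and 3. Changes are log2 fold changes of Tom+ over Tom-. Their standard errors (SE) were back-computed as the size of the change over the square root of the test's F statistic. They are approximate and are not meant for intervals. Adjusted p-values come from edgeR's quasi-likelihood test with the replicate number as a block and Benjamini-Hochberg adjustment over the 16294 genes. A gene is said to have risen or fallen when its adjusted p was under 0.05, and it is called a DEG when its log2 fold change was also beyond 0.75 in either direction. Every gene named below as risen or fallen moved the same way in 3 of 3 same-numbered pairs, except Cd36, which was lower in 2 of 3. After a count of a gene list, parentheses give the count in the fit without the block and in each fit that leaves out a pair, where it moved by over 1.5 times and by at least 2 genes. CPM values are not scaled to gene length, so levels are compared between libraries and not between genes.

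Total counts lay between 37568669 and 75331523 per library, so that 3 counts correspond to between 0.0398 and 0.0799 CPM, a limit that covers counting error only. The reporter, a sequence added to the annotation (ENSMUSG00000999992) and taken here as tdTomato, was at 124, 266 and 121 CPM in Tom- and 1352, 1316 and 1370 CPM in Tom+. Its groups did not overlap (p = 0.1 by a 2-sided exact permutation test, below which 3 libraries against 3 cannot go), the ratio of the means was 7.9, and the log2 fold change was 3.09 (adjusted p = 0.0436, and 0.239 without replicate 1 and 0.174 without replicate 3). Cdkn2a (ENSMUSG00000044303, chromosome 4, 89274471 to 89294653 on mm10), the locus whose promoter drives the Cre, was close to the limit of detection and did not pass the filter. It had 18, 8 and 21 counts in Tom- and 6, 0 and 1 counts in Tom+, so that its RNA was not higher in the Tom+ libraries here. The counts do not separate the p16Ink4a transcript from the other transcripts of the locus. Without the filter, the log2 fold change of Cdkn2a was -3.58 (adjusted p = 0.0102). By qPCR, the study reports higher p16Ink4a in Tom+ than in Tom- hepatocytes, collected on a separate schedule some days after the last CCl4 dose. That assay and these near-floor counts are unlike measures. The 12 hepatocyte markers summed to between 158000 and 169000 CPM in Tom- and between 125000 and 139000 CPM in Tom+, and 8 of the 12, Alb and Fgb among them, fell and 1 rose (0 rose and 0 fell without the block, 0 and 5 without replicate 1, 0 and 1 without replicate 2).

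RNA of other liver cells was present at low level and moved with the groups. The 20 markers of liver endothelium summed to 652, 654 and 637 CPM in Tom- and to 316, 370 and 431 CPM in Tom+, and 17 of the 20 fell, among them Pecam1, Kdr and Stab2, and 16 fell without the replicate block. The 20 markers of stellate cells and fibroblasts summed to 181, 243 and 243 CPM in Tom- and 110, 180 and 227 CPM in Tom+, with overlapping groups, and 5 of the 17 tested fell and 1 rose (0 rose and 0 fell without the block, 1 and 3 without replicate 1, 0 and 2 without replicate 2). The 20 markers of Kupffer cells and macrophages summed to 158, 153 and 193 CPM in Tom- and 94.7, 90.5 and 279 CPM in Tom+, so that Tom+ replicate 3 stood above the 5 other libraries and the other Tom+ libraries below the Tom- libraries, and 5 of the 20 fell and 1 rose (0 rose and 0 fell without the block, 3 and 3 without replicate 1, 0 and 1 without replicate 2, 0 and 11 without replicate 3). Lyz2, the lysozyme of macrophages, was at 64.1 CPM in Tom+ replicate 3 against 12.9 to 20.1 CPM in the 5 others. The lists of lymphocytes (summed level 3.25 to 6.43 CPM, with 3 of 22 members at 0 in every library), neutrophils (0.66 to 1.71 CPM), red cells and platelets (9.61 to 13.6 CPM) and cholangiocytes (32.2 to 43.7 CPM) overlapped between the groups, and of their 14 members tested Prom1 rose and Krt23 fell. In such bulk samples, fewer cells of a type and less RNA per cell cannot be told apart.

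**Figure D1:**
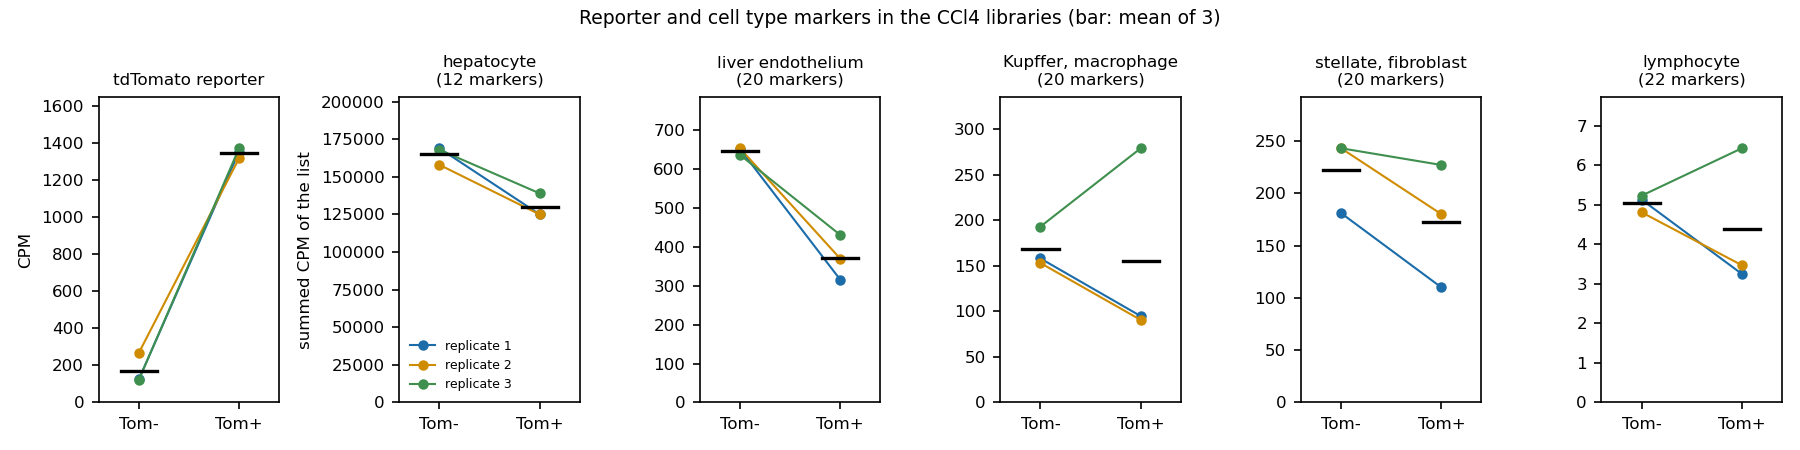
Level of the tdTomato reporter (CPM) and summed level (CPM) of 5 lists of cell type markers in the 3 Tom- and 3 Tom+ libraries of CCl4-treated mice, with same-numbered libraries joined and the mean of each group as a bar. The reporter was at 1316 CPM or more in the Tom+ libraries and at 266.3 CPM or less in the Tom- libraries, the endothelial markers were lower in 3 of 3 Tom+ libraries, and the macrophage markers were high in Tom+ replicate 3.

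Of the 16294 genes tested, 142 (0.871%) were DEGs higher in Tom+ and 696 (4.27%) were DEGs lower in Tom+. At the adjusted p alone, 1698 (10.4%) rose and 2151 (13.2%) fell. These 4 shares are the background against which the counts of each gene list below are read. The median log2 fold change over all genes was -0.001, with 49.9% of genes above 0, a centre that TMM scaling sets near 0, so that changes are relative to it. Most rises were small: 81.6% of the genes that rose had a log2 fold change under 0.5, with a median of 0.31, whereas the median size of a fall was 0.55. Without the replicate block the DEGs numbered 43 higher and 302 lower, of which 42 and 296 were among those given above, and without replicate 2 they numbered 84 higher and 319 lower.

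Many DEGs were genes of low level. Their median level over the 6 libraries was 2.63 CPM for the 142 higher and 2.74 CPM for the 696 lower DEGs, against 8.92 CPM over all genes tested. Protein-coding genes made up 72.5% of the higher and 70.5% of the lower DEGs, against 80.1% of all genes tested. Of the 142 higher and 696 lower DEGs, 29 and 136 were long noncoding or unclassified transcripts, against 2001 of the 16294 genes tested. More than 2-fold changes were found for 75 higher and 380 lower DEGs. The 2 fractions were without overlap in 102 of the 142 and 616 of the 696, and over all genes tested in 2206 (13.5%) that were higher and 2519 (15.5%) that were lower in Tom+. The lists of cell types, zones and functions together hold 47 of the higher and 77 of the lower DEGs, so that most DEGs belong to none of them. The zone lists hold 14 higher and 13 lower DEGs, and the marker lists of cells other than hepatocytes 2 and 13.

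**Figure D2:**
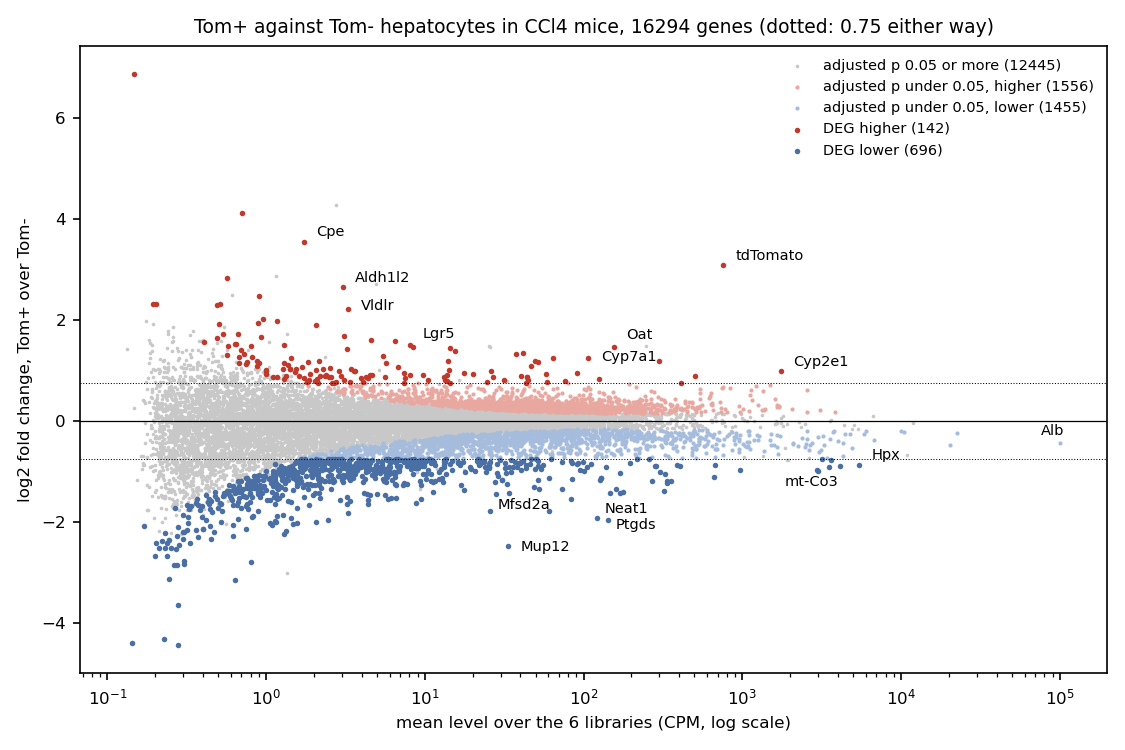
Log2 fold change of Tom+ over Tom- (y axis) against the mean level over the 6 libraries (CPM, log scale, x axis) for 16294 genes, with 142 DEGs higher, 696 DEGs lower and dotted lines at 0.75 on either side. Falls outnumber rises among the DEGs, and most DEGs lie below 10 CPM, with Hpx, mt-Co3 and Cyp2e1 among those at high level.

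Besides the reporter, the largest rises among DEGs whose mean level reached 1 CPM were those of a peptide-processing enzyme, a mitochondrial folate enzyme and a lipoprotein receptor. Cpe (ENSMUSG00000037852, chromosome 8, 64592542 to 64693054), which encodes carboxypeptidase E of the regulated secretory pathway, was at 0.254, 0.056 and 0.514 CPM in Tom- and 3.96, 2.25 and 3.3 CPM in Tom+. It was almost absent from Tom- and present in each Tom+ library, with a log2 fold change of 3.56 (SE 0.37, adjusted p = 3.10e-05 with and 0.0189 without the block). Aldh1l2 (ENSMUSG00000020256, chromosome 10, 83487450 to 83534140), the mitochondrial 10-formyltetrahydrofolate dehydrogenase, was at 0.508, 0.811 and 1.11 CPM in Tom- and 3.52, 3.69 and 8.63 CPM in Tom+. Each Tom+ library lay above every Tom- library, and the change was 2.66 (SE 0.22, adjusted p = 6.70e-06 with and 0.0198 without the block). Vldlr (ENSMUSG00000024924, chromosome 19, 27216484 to 27254231), the receptor for very low density lipoproteins, was at 0.939, 1.76 and 0.857 CPM in Tom- and 4.09, 6.83 and 5.22 CPM in Tom+. Its groups did not overlap either, and the change was 2.21 (SE 0.20, adjusted p = 1.29e-05 with and 0.0146 without the block). In the 6 oil libraries Cpe was between 0 and 0.409 CPM (median 0.0194), Aldh1l2 between 0.174 and 0.715 CPM (median 0.395) and Vldlr between 0.147 and 2.62 CPM (median 0.827), so that the Tom+ libraries of CCl4-treated mice stood above all oil libraries for each of the 3 genes.

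Tenm3, Nxpe2 and Kif26b were also among the 15 largest rises of DEGs at that level. Tenm3, a teneurin that links neighbouring cells, was at 0.635, 0.671 and 1.35 CPM in Tom- and 2.94, 3.52 and 3.28 CPM in Tom+, with a change of 1.91 (SE 0.27, adjusted p = 2.54e-04 with and 0.0198 without the block). In the oil libraries it was between 8.18 and 21 CPM (median 12.8), above both CCl4 groups. Nxpe2, a gene without a well described role in liver, was at 1.01, 1.4 and 2.01 CPM in Tom- and 4.34, 3.56 and 6.29 CPM in Tom+, with a change of 1.69 (SE 0.20, adjusted p = 9.23e-05 with and 0.0237 without the block). Kif26b, a kinesin-like gene, overlapped between the groups, with 0.762, 0.112 and 1.35 CPM in Tom- and 2.18, 0.917 and 2.51 CPM in Tom+ and a change of 1.51 (SE 0.34, adjusted p = 0.00685, and 0.0532 without replicate 2). The antisense transcript Gm13872, which lies on chromosome 2, rose by 1.99 (adjusted p = 5.04e-04). Mir8114 and Teddm2, with changes of 1.61 and 1.59, lie over or next to Glul on chromosome 1, and their values are uncertain because the counts in these libraries were divided between features.

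Among DEGs whose mean level reached 1 CPM, Mup12, a major urinary protein gene, had the largest fall, and falls of greater size, down to -4.44, were found among DEGs of lower level. Mup12 (ENSMUSG00000094793, chromosome 4, 60737383 to 60741326) was at 62.6, 40.1 and 65.9 CPM in Tom- and 16.3, 8.04 and 6.79 CPM in Tom+, and its groups did not overlap. Its change was -2.48 (SE 0.34, adjusted p = 0.0289 with and 0.0337 without the block, and 0.205 without replicate 2), and its reads are divided with near-identical copies. Ptgds (ENSMUSG00000015090, chromosome 2, 25466709 to 25470046), a lipocalin-type prostaglandin D synthase, was at 209, 278 and 191 CPM in Tom- and 70.7, 58 and 46 CPM in Tom+. Each Tom+ library lay below every Tom- library, with a change of -1.96 (SE 0.14, adjusted p = 5.74e-04 with and 0.0111 without the block). Of the 15 largest falls at 1 CPM or more, 8 were long noncoding, antisense or unclassified transcripts: Neat1, described below, and Gm21781, Gm37072, E130102H24Rik, Gm44117, Gm44851, AL805899.1 and Gm20342, with changes between -2.23 and -1.89. The protein-coding genes among the 15 included Cacna1h, a T-type calcium channel subunit (2.18, 1.99 and 1.35 CPM in Tom- and 0.706, 0.459 and 0.251 CPM in Tom+), and Tmem88b, a membrane protein gene (3.33, 3.58 and 2.96 CPM in Tom- and 1.11, 0.655 and 0.71 CPM in Tom+). Both were without overlap, with adjusted p = 7.10e-04 and 1.24e-04.

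Among genes that passed the test, the 10 largest differences of mean CPM were falls, of plasma protein genes and of mitochondrial sequence. The 6 mitochondrially encoded genes that did not pass were not ranked. Alb, the serum albumin gene, was at 119500, 109800 and 118200 CPM in Tom- and 83360, 82010 and 92080 CPM in Tom+. It was lower in every Tom+ library than in any Tom- library, with a change of -0.43 (SE 0.07, adjusted p = 7.65e-04 with and 0.0618 without the block, and 0.105 without replicate 2). Apoe, an apolipoprotein of remnant particles, was at 25150, 23720 and 22500 CPM in Tom- and 17710, 16110 and 17310 CPM in Tom+, without overlap and with a change of -0.48 (SE 0.07, adjusted p = 2.34e-04 with and 0.0398 without the block, and 0.0503 without replicate 2). Hpx, the haem scavenger haemopexin, was at 7495, 6209 and 7365 CPM in Tom- and 3881, 3126 and 4685 CPM in Tom+, without overlap and with a change of -0.86 (SE 0.07, adjusted p = 6.70e-06 with and 0.024 without the block). C3, the central complement component, and Serpina3k, a serine protease inhibitor, had changes of -0.24 (SE 0.07, adjusted p = 0.0297, and 0.108 without replicate 1, and 0.274 without replicate 2) and -0.70 (SE 0.06, adjusted p = 7.23e-06), respectively, and of the pair only C3 overlapped between the groups. The remaining 5 were mt-Atp6, mt-Co3 and mt-Nd1 and the features Gm10925 and Gm28437, nuclear copies of mitochondrial sequence on chromosome 1 whose reads cannot be told apart from those of the mitochondrial genome.

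Zone 3 genes were higher and zone 1 genes lower in Tom+. Of 30 perivenous genes 27 rose and 0 fell, with a median log2 fold change of 0.88 against -0.001 over all genes, and of 30 periportal genes 28 fell and 1 rose, with a median of -0.63. Without the block these counts were 10 perivenous genes that rose and 15 periportal genes that fell. The fractions thus differed in zone genes, and the part of zone in the changes of other functions was not tested. A gene can be on several lists, so that zone genes are counted again under other functions. Among the genes named below, Oat, Gstm3, Slc13a3, Ahr, Tbx3 and Cldn2 are also on the perivenous list. Ass1, Ftcd, Ctsc, Cdh1, Mfsd2a and Cyp2f2 are also on the periportal list. Nkd1, an inhibitor that the Wnt pathway induces, was the 1 perivenous gene with a change below 0, at 2.49, 1.59 and 1.97 CPM in Tom- and 1.66, 1.05 and 1.88 CPM in Tom+ and with -0.41 (adjusted p = 0.241). Components of the Wnt pathway were among the perivenous genes that rose. Axin2, a scaffold of the beta-catenin destruction complex and a common target of the pathway, was at 6.14, 6.49 and 10.9 CPM in Tom- and 21.2, 17.5 and 24.4 CPM in Tom+, without overlap and with a change of 1.45 (SE 0.12, adjusted p = 6.74e-06 with and 0.0203 without the block). Lgr5, a receptor for R-spondins, was at 2.08, 3.89 and 7.24 CPM in Tom- and 10.1, 10.1 and 14.9 CPM in Tom+, with a change of 1.52 (SE 0.20, adjusted p = 3.95e-04 with and 0.116 without the block). Rnf43, a ubiquitin ligase that removes Wnt receptors, was at 14.4, 12.5 and 17.2 CPM in Tom- and 25.9, 20.9 and 24.9 CPM in Tom+, with a change of 0.71 (SE 0.09, adjusted p = 1.78e-04 with and 0.0285 without the block). Sp5, a transcription factor that the pathway induces, was at 0.203, 0.336 and 0.771 CPM in Tom- and 1.66, 0.961 and 0.919 CPM in Tom+, with a change of 1.48 (SE 0.48, adjusted p = 0.04 with and 0.139 without the block, and 0.28 without replicate 1, and 0.205 without replicate 2). Tnfrsf19, a receptor of the tumour necrosis factor family, is not on the list and was named by the size of its change: it was at 3.02, 3.55 and 7.26 CPM in Tom- and 10.2, 10.7 and 15.5 CPM in Tom+, with a change of 1.46 (SE 0.15, adjusted p = 2.49e-05 with and 0.0642 without the block). The groups of these 5 genes did not overlap. In the oil libraries Axin2 was between 1.64 and 5.75 CPM (median 2.67) and Tnfrsf19 between 0.245 and 1.71 CPM (median 0.38), below the Tom+ libraries of CCl4-treated mice. The ligand and enhancer genes Wnt2, Wnt9b and Rspo3, which liver endothelium makes, did not pass the test.

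Promoter sequences of DEGs were searched for the letters of short motifs, as a description. The promoters come from RefSeq on GRCm38.p6 and cover 250 bases before to 50 bases after the start, and both strands were searched. The TCF motif CTTTGAT, which the nuclear partners of beta-catenin bind, was found in 8 of 108 promoters (7.41%) of DEGs higher in Tom+, in 10 of 508 promoters (1.97%) of DEGs lower in Tom+ and in 365 of 13865 promoters (2.63%) of all genes tested. The ATF4-CEBP motif TGATGNAA, which stress-induced activators bind, was found in 6 (5.56%), 8 (1.57%) and 322 (2.32%) of these promoters. The 6 other motifs searched were the TATA box TATAAA, the CCAAT box with these letters, the HNF4A motif (CAAAGTCCA or CAAAGGTCA), the AP-1 motif TGANTCA, the NRF2 motif TGACNNNGC and the E-box CACGTG. In the order of higher DEGs, lower DEGs and all genes, they were found in 14.8%, 11.2% and 7.91%, in 49.1%, 35.2% and 37.6%, in 0.926%, 1.57% and 1.01%, in 11.1%, 6.1% and 5.32%, in 14.8%, 11.4% and 14.1%, and in 4.63%, 8.07% and 9.46% of the promoters. Promoters were in the table for 59.9% of the higher and 58.2% of the lower DEGs and for 66.8% of all genes tested, under 80% in each case, so the comparison of the shares is void. For 4 of the DEGs described here, the 250 bases before the start are shown from 5′ to 3′, with the motif in capitals. These genes were picked by hand and only promoters with a match are shown, so that the presence of the motif in them was set in advance. Whether the factors that bind these motifs act on these genes was not tested.
Sp5, chr2:70474673-70474922, plus strand, TCF motif: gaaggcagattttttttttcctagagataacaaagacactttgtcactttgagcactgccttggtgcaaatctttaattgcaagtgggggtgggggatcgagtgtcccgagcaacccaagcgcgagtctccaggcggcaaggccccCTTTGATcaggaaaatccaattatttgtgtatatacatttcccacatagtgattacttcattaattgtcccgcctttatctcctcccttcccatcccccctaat
Tnfrsf19, chr14:61037988-61038237, minus strand, TCF motif on the opposite strand: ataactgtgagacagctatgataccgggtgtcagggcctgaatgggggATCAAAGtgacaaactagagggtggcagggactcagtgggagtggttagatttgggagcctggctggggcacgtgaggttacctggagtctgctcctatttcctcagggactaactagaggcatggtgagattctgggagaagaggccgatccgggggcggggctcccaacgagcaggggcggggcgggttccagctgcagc
Asns, chr6:7693210-7693459, minus strand, ATF4-CEBP motif: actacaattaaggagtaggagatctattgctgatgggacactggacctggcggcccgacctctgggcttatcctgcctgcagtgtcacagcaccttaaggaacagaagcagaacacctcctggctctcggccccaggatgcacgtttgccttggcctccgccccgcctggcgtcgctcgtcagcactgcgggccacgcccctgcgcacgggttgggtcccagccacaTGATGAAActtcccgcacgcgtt
Vldlr, chr19:27216770-27217019, plus strand, ATF4-CEBP motif on the opposite strand: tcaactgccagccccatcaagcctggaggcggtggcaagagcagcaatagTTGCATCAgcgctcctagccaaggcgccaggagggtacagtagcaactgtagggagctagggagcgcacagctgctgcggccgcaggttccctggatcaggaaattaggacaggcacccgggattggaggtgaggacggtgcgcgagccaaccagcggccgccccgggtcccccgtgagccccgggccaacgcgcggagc
The matches begin 104, 202, 23 and 200 bases before the start, in the same order.

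Genes of secreted plasma proteins fell together. Of 47 genes of complement and coagulation, 42 fell and 0 rose (13 fell without the block), with a median log2 fold change of -0.35. Coagulation factors F7 and F10 were at 163, 171 and 138 CPM in Tom- and 99.5, 97.7 and 100 CPM in Tom+ and at 557, 594 and 592 CPM in Tom- and 341, 409.8 and 432 CPM in Tom+, respectively. The groups of both genes did not overlap, with changes of -0.66 (SE 0.07, adjusted p = 2.50e-05 with and 0.0146 without the block) and -0.57 (SE 0.06, adjusted p = 3.45e-05 with and 0.0284 without the block). Cfp, which encodes properdin, a stabilizer of complement convertases, had the largest fall of the list. It is a product of leukocytes and was at 9.21, 8.39 and 10.46 CPM in Tom- and 5.1, 3.47 and 8 CPM in Tom+, with a change of -0.82 (adjusted p = 0.00287, and 0.0506 without replicate 2). Of the Tom+ libraries it was highest in replicate 3, as were the macrophage markers, and the part of macrophage RNA in it was not tested. Of 30 acute phase genes, 24 fell and 1 rose, Steap4 (0 rose and 8 fell without the block), with a median of -0.40. Lbp, the lipopolysaccharide binding protein, was at 311, 250.1 and 259 CPM in Tom- and 179, 142 and 165 CPM in Tom+, without overlap and with a change of -0.76 (SE 0.06, adjusted p = 2.89e-06 with and 0.0184 without the block). The metallothioneins Mt1 and Mt2 had changes of -0.56 and -0.66, and Hamp, the iron hormone hepcidin, -0.37 (adjusted p = 1.99e-04, 8.50e-05 and 3.84e-04).

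Genes of lipoproteins, of the endoplasmic reticulum and of the insulin-like growth factor axis were lower as well. Of 32 genes of lipoprotein and lipid transport, 21 fell and 2 rose (1 rose and 6 fell without the block, 2 and 13 without replicate 2), with a median of -0.32. The rises were those of Vldlr and of Lpl, which encodes lipoprotein lipase. Apoa5, an apolipoprotein that activates that lipase, was at 531, 634 and 612 CPM in Tom- and 368, 341 and 401 CPM in Tom+, without overlap and with a change of -0.68 (SE 0.07, adjusted p = 2.50e-05 with and 0.0179 without the block). Of 28 genes of endoplasmic reticulum chaperones and the unfolded protein response, 19 fell and 0 rose (2 fell without the block, 12 without replicate 1, 12 without replicate 2), with a median of -0.29. Hspa5, the main chaperone of that compartment, was at 1292, 1152 and 722 CPM in Tom- and 844, 813 and 602 CPM in Tom+. Its groups overlapped, with replicate 3 the lowest in both fractions, and the change was -0.46 (SE 0.07, adjusted p = 3.97e-04 with and 0.238 without the block). Syvn1, a ubiquitin ligase that clears misfolded proteins, had a change of -0.70 (SE 0.06, adjusted p = 6.20e-06 with and 0.0754 without the block). Of 10 genes of the insulin-like growth factor axis, 8 fell and 1 rose, Igf2r (0 rose and 2 fell without the block, 0 and 3 without replicate 2), with a median of -0.38. Igfals, which stabilizes the hormone in blood, was at 322, 277 and 216 CPM in Tom- and 189.6, 177 and 167 CPM in Tom+, without overlap and with a change of -0.59 (SE 0.07, adjusted p = 8.07e-05 with and 0.0433 without the block). The 2 DEGs of the list were Igf1r and Igfbp7, both lower in Tom+. Igf1r had means of 1.72 CPM in Tom- and 0.821 CPM in Tom+, and Igfbp7 37.6 and 22.2 CPM. Their changes were -1.05 and -0.78 (adjusted p = 0.0161 and 0.0125 with the block). The part of RNA from other liver cells in these falls was not tested.

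**Figure D3:**
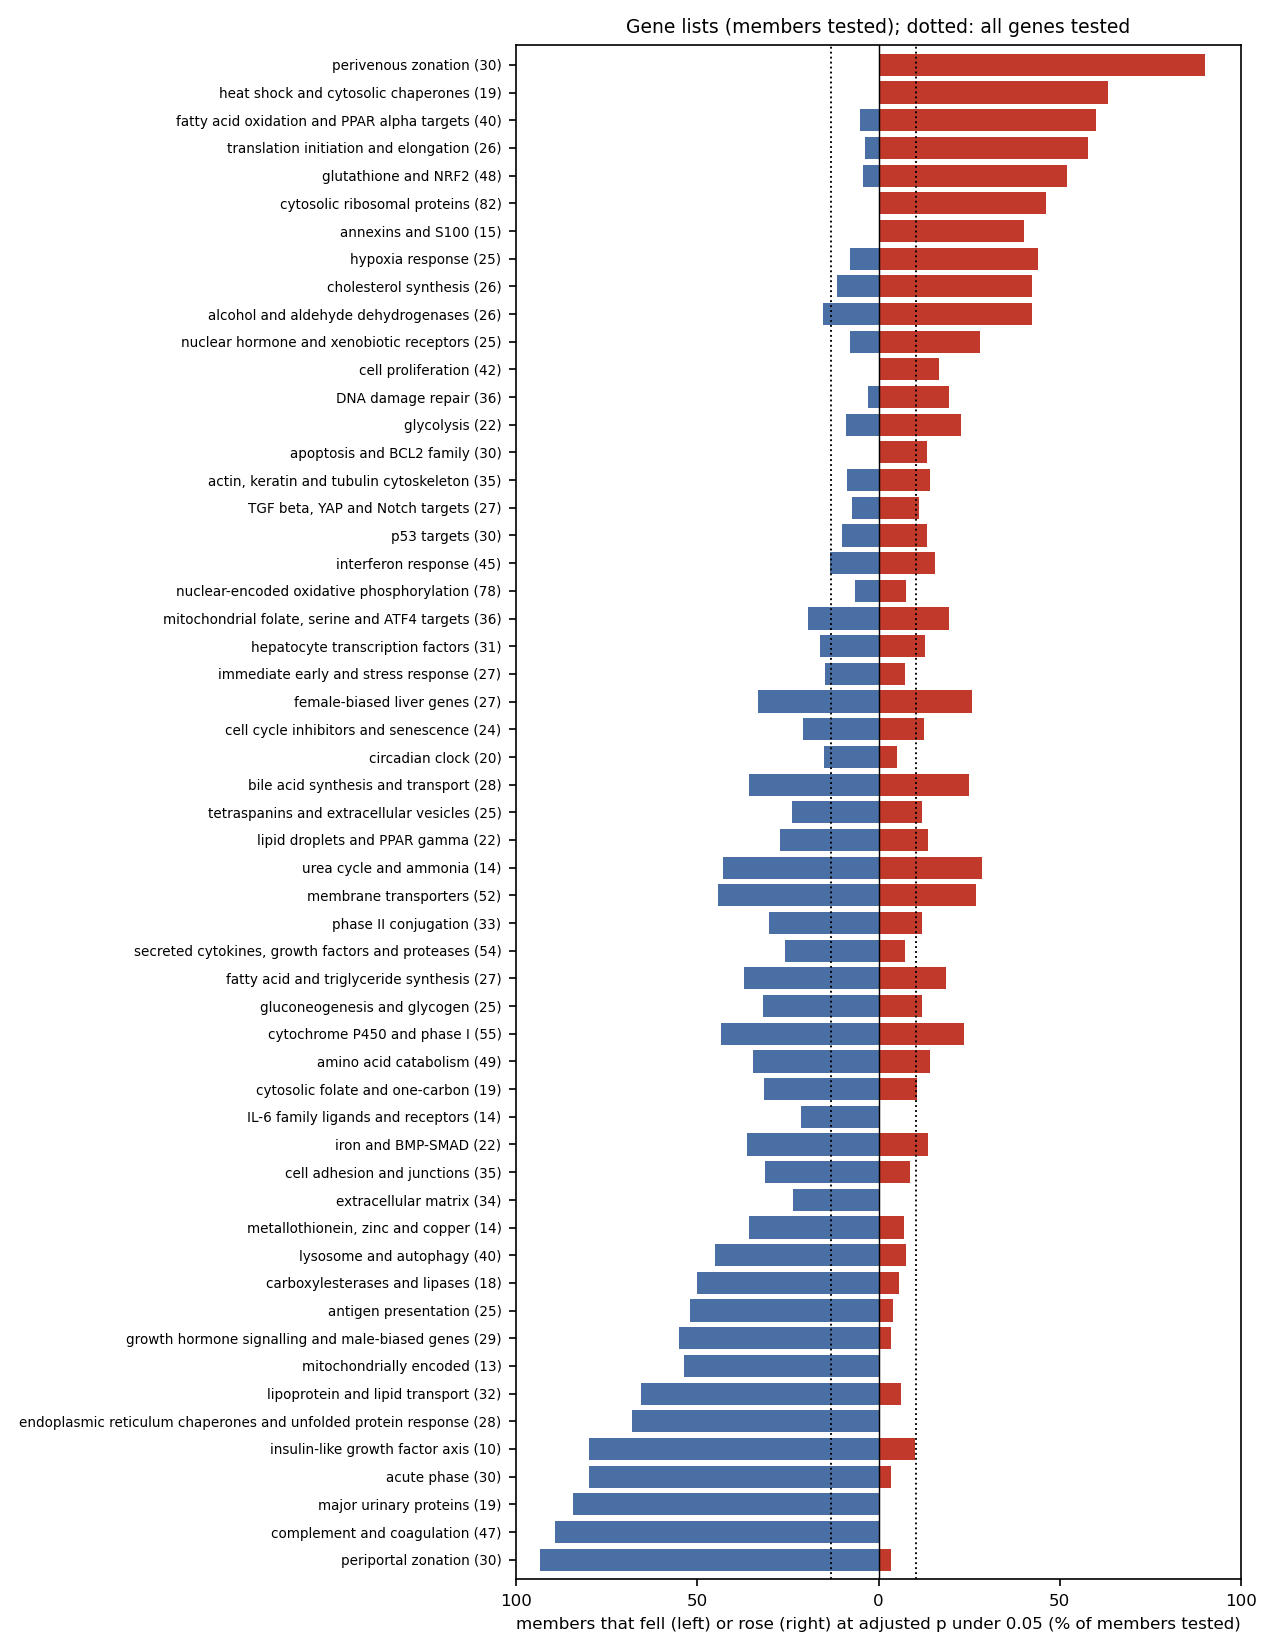
Share of the members tested (%) that fell (left bars) or rose (right bars) at an adjusted p under 0.05 in each gene list, with the number of members tested in parentheses and dotted lines at the shares over all genes tested, 13.2% for falls and 10.4% for rises. Complement and coagulation, major urinary proteins and acute phase lie at the side of the falls with the periportal list, and heat shock, fatty acid oxidation, translation and glutathione genes lie at the side of the rises with the perivenous list.

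Genes of protein synthesis and of cytosolic protein folding rose by small steps. Of 82 genes of cytosolic ribosomal proteins, 38 rose and 0 fell (0 rose without the block, 4 without replicate 2, 22 without replicate 3), and 79 had a log2 fold change above 0, with a median of 0.16. Rpl35 was at 48.3, 46.7 and 63.8 CPM in Tom- and 58.8, 68.1 and 79.7 CPM in Tom+, with overlapping groups and a change of 0.38 (SE 0.07, adjusted p = 0.00152 with and 0.171 without the block). Of 26 translation factors 15 rose and 1 fell, Eif4a2 (1 rose and 0 fell without the block, 1 and 0 without replicate 2). Eif4g2, a scaffold of initiation, was at 409, 426 and 427 CPM in Tom- and 533, 576 and 539 CPM in Tom+, without overlap and with a change of 0.38 (SE 0.05, adjusted p = 2.72e-04 with and 0.0416 without the block). Of 19 heat shock genes and cytosolic chaperones, 12 rose and 0 fell (0 rose without the block, 4 without replicate 2), with a median of 0.26. Hspb1, a small heat shock protein, was at 3.12, 2.6 and 4.86 CPM in Tom- and 6.5, 5.72 and 11.5 CPM in Tom+. Each Tom+ library lay above every Tom- library, and the change was 1.15 (SE 0.14, adjusted p = 1.25e-04 with and 0.0804 without the block). Of 39 proteasome subunits, a family chosen by symbol after the results were seen, 16 rose and 0 fell (2 rose without the block, 7 without replicate 1, 4 without replicate 2, 9 without replicate 3), with a median of 0.18.

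Genes of fatty acid oxidation rose, and more genes of lipid synthesis fell than rose. Of 40 genes of fatty acid oxidation and targets of PPAR alpha, the fatty acid sensor that induces them, 24 rose and 2 fell (2 rose and 0 fell without the block, 19 and 0 without replicate 1, 8 and 0 without replicate 2), with a median of 0.21. Ppara itself was at 65, 46.6 and 57.3 CPM in Tom- and 115, 85.9 and 90.8 CPM in Tom+. The groups did not overlap, and the change was 0.79 (SE 0.06, adjusted p = 5.89e-06 with and 0.0259 without the block). Pdk4, a kinase that spares glucose when fat is burned, had a change of 0.76 (SE 0.07, adjusted p = 1.18e-05 with and 0.548 without the block), with overlapping groups. The 2 genes that fell were Cd36, a fatty acid uptake receptor, and Angptl4, an inhibitor of lipoprotein lipase, with -0.33 and -0.21 (adjusted p = 0.0425 and 0.0159, and 0.282 and 0.157 without replicate 2). Of 27 genes of fatty acid and triglyceride synthesis, 10 fell and 5 rose (1 rose and 3 fell without the block, 3 and 7 without replicate 1, 2 and 6 without replicate 2). Mlxipl, which encodes the carbohydrate response factor ChREBP, was at 371, 637 and 574 CPM in Tom- and 266, 299.6 and 270.3 CPM in Tom+. Each Tom+ library lay below every Tom- library, and the change was -0.89 (SE 0.13, adjusted p = 0.00825 with and 0.0319 without the block). Dgat1, an enzyme of the last step of triglyceride synthesis, had a change of -0.70 (SE 0.09, adjusted p = 1.99e-04 with and 0.0146 without the block).

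More genes of cholesterol synthesis rose than fell, and Cyp7a1 rose. Of 26 genes of cholesterol synthesis and its control, 11 rose and 3 fell (1 rose and 0 fell without the block, 5 and 1 without replicate 1, 5 and 1 without replicate 2), with a median of 0.15. Idi1 and Hmgcs1, enzymes of the mevalonate pathway, had changes of 0.57 (SE 0.08, adjusted p = 6.04e-04 with and 0.0277 without the block) and 0.48 (SE 0.07, adjusted p = 3.39e-04 with and 0.0525 without the block). Ebp and Dhcr7, enzymes of the late pathway, were among those that fell, with -0.33 and -0.16, and the adjusted p of Dhcr7 was 0.279 without replicate 2. Cyp7a1, the rate-limiting enzyme of bile acid synthesis, was at 53.2, 65.2 and 72.8 CPM in Tom- and 153, 150.4 and 148 CPM in Tom+. The Tom+ libraries were close to each other and each above every Tom- library, with a change of 1.25 (SE 0.08, adjusted p = 3.49e-06 with and 0.0105 without the block). Over the whole list of 28 bile acid genes, however, 7 rose and 10 fell (2 rose and 1 fell without the block, 4 and 8 without replicate 2), with a median of -0.07. Cyp8b1 and Cyp7b1, which hydroxylate sterols at other positions, and Slc27a5, which activates bile acids for conjugation, had changes of -0.56, -0.54 and -0.62 (adjusted p = 3.35e-04, 1.18e-04 and 3.19e-05). Of 22 genes of lipid droplets and PPAR gamma, 3 rose and 6 fell (2 rose and 3 fell without the block, 3 and 3 without replicate 2). Plin4, a coat protein, fell to 11.1, 12.8 and 11.2 CPM from 16.4, 30.1 and 26.1 CPM, with a change of -1.01 (SE 0.13, adjusted p = 1.80e-04 with and 0.0303 without the block), and Pparg, the adipogenic receptor, rose to 10.9, 10.46 and 7.83 CPM from 4.62, 5.23 and 5.16 CPM, with a change of 0.95 (SE 0.15, adjusted p = 5.67e-04 with and 0.0198 without the block).

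Genes of carbohydrate and nitrogen metabolism moved both ways. Among 25 genes of gluconeogenesis and glycogen, 8 fell and 3 rose (2 rose and 4 fell without the block). G6pc and Slc37a4, the catalytic subunit and the transporter that release glucose, had changes of -0.74 (SE 0.06, adjusted p = 5.28e-06 with and 0.0692 without the block) and -0.64 (SE 0.07, adjusted p = 3.24e-05 with and 0.0164 without the block). Gbe1, the branching enzyme of glycogen, rose by 0.53 (adjusted p = 3.99e-05). Of 22 glycolysis genes 5 rose and 2 fell (0 rose and 1 fell without the block, 3 and 2 without replicate 1, 1 and 2 without replicate 2, 2 and 4 without replicate 3). The falls were those of Khk and Gckr, the fructokinase gene and the gene of the glucokinase regulator. Of 14 genes of the urea cycle and ammonia, 6 fell and 4 rose (2 rose and 4 fell without the block). Ass1 and Asl, consecutive enzymes of the cycle, had changes of -0.62 (SE 0.06, adjusted p = 1.49e-05 with and 0.0438 without the block) and -0.65 (SE 0.06, adjusted p = 6.88e-06 with and 0.023 without the block), whereas Glud1, the glutamate dehydrogenase, had 0.41 (SE 0.06, adjusted p = 2.22e-04 with and 0.0383 without the block).

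Genes of amino acid catabolism also moved both ways. Of 49 genes, 17 fell and 7 rose (1 rose and 6 fell without the block, 4 and 16 without replicate 1, 3 and 14 without replicate 2, 3 and 17 without replicate 3), with a median of 0.01. Ftcd (ENSMUSG00000001155, chromosome 10, 76575648 to 76590338), which passes the formimino group of histidine to folate, was at 470.1, 509 and 421 CPM in Tom- and 242, 204 and 172 CPM in Tom+. Its groups did not overlap, and the change was -1.19 (SE 0.07, adjusted p = 4.88e-07 with and 0.0111 without the block). Csad, an enzyme of the conversion of cysteine to taurine, was at 626, 534 and 808 CPM in Tom- and 1020, 867 and 1183 CPM in Tom+. It rose without overlap of the groups, by 0.65 (SE 0.06, adjusted p = 9.46e-06 with and 0.0684 without the block). Oat, the ornithine aminotransferase of perivenous hepatocytes, was at 61.4, 111 and 74.5 CPM in Tom- and 185, 299 and 197 CPM in Tom+, with the smallest adjusted p of the rises, 1.73e-08 (0.0365 without the block), and a change of 1.47.

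Of 36 genes of mitochondrial folate, serine and targets of the stress factor ATF4, 7 rose and 7 fell (2 rose and 1 fell without the block, 5 and 3 without replicate 2), so that the large rises of Aldh1l2 and Vldlr were not shared by the list, whose median was 0.06. Asns, the asparagine synthetase, was at 0.711, 0.979 and 2.25 CPM in Tom- and 1.69, 2.03 and 5.35 CPM in Tom+. It rose in each pair, with overlapping groups and a change of 1.19 (SE 0.22, adjusted p = 0.00193 with and 0.267 without the block). The falls included Ddit3, Ddit4 and Gdf15, stress-induced genes, with changes of -0.57, -0.51 and -0.39 (adjusted p = 0.0218, 0.00117 and 0.00177), of which Ddit3 and Gdf15 were at 0.238 and 0.0506 without replicate 2. Atf4 itself was at 60.7, 57.4 and 58.4 CPM in Tom- and 58.2, 59.4 and 52.4 CPM in Tom+, with a change of -0.06 that did not pass (adjusted p = 0.572). Of 19 cytosolic folate and one-carbon genes, 6 fell and 2 rose (0 rose and 2 fell without the block, 0 and 3 without replicate 2). Mat2a, an S-adenosylmethionine synthetase, had a change of -0.53 (SE 0.07, adjusted p = 2.33e-04 with and 0.0351 without the block).

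**Figure D4:**
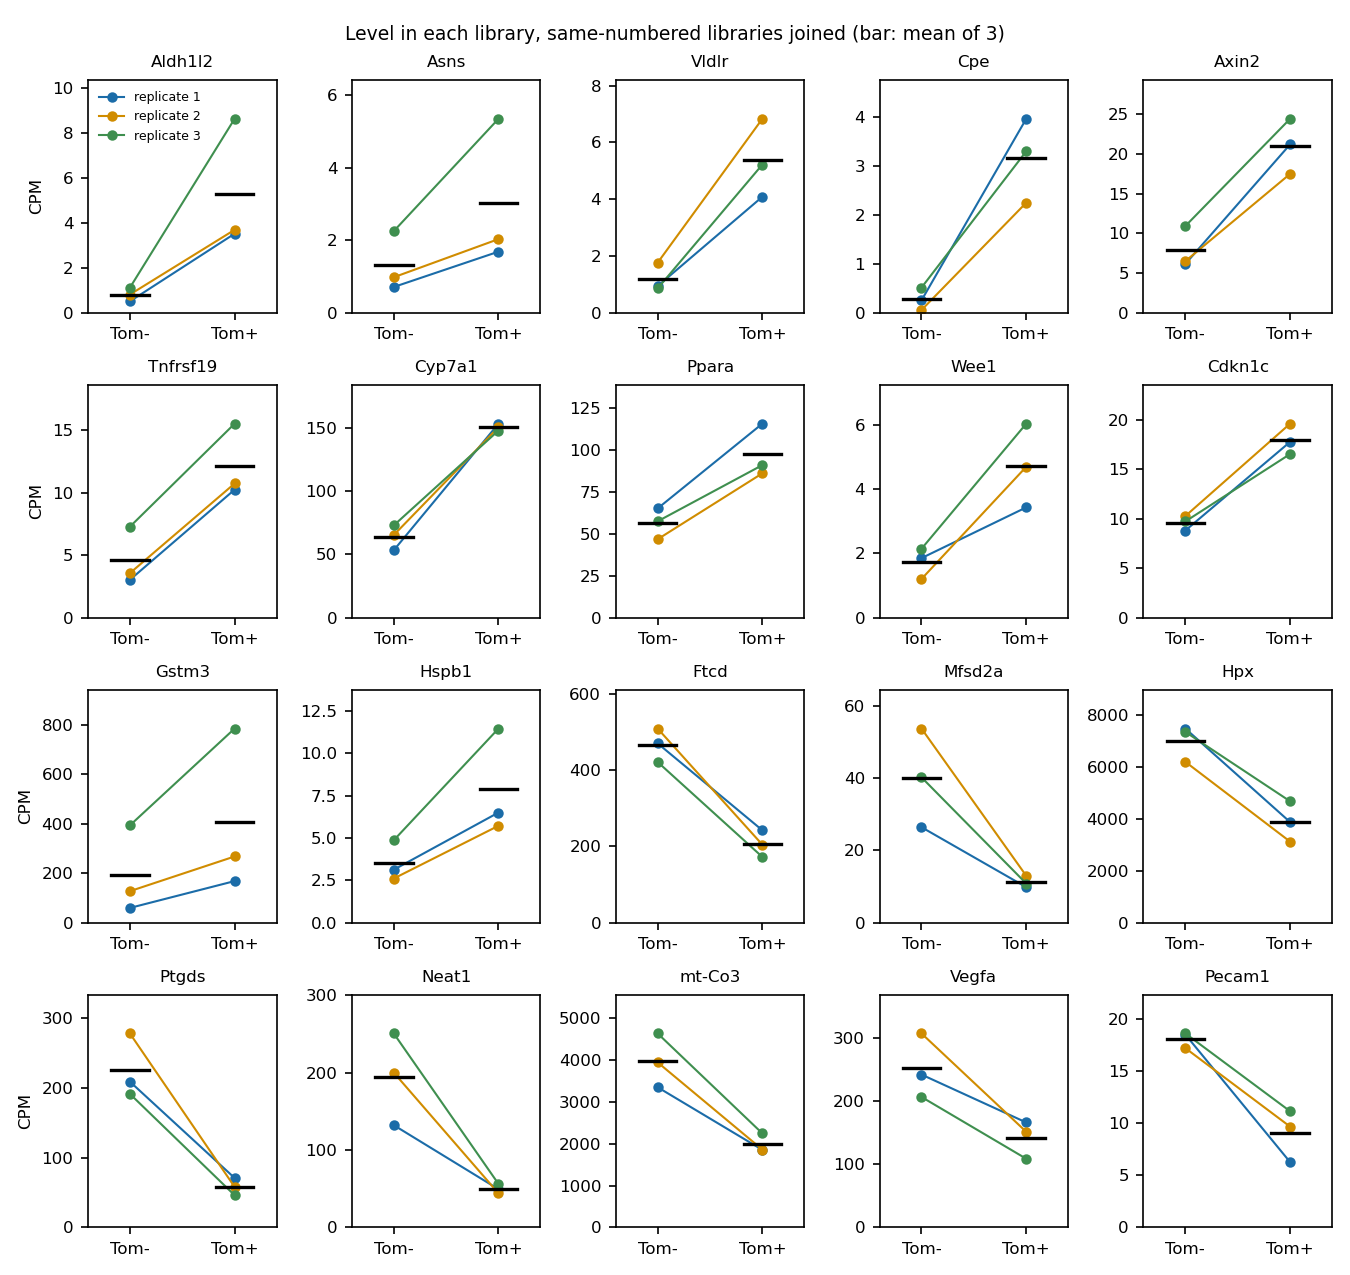
Level (CPM, linear axes from 0) of 20 genes in each of the 6 libraries, with same-numbered Tom- and Tom+ libraries joined and the mean of each group as a bar. The lines run in 1 direction in each panel, upward from Aldh1l2 to Hspb1 and downward from Ftcd to Pecam1, and for Asns and Gstm3 the replicates differ more than the fractions.

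Xenobiotic metabolism did not move as 1 group. Of 55 cytochrome P450 and other phase I genes, 13 rose and 24 fell (1 rose and 7 fell without the block), with a median of -0.19. Cyp2c55 was at 3.22, 23.8 and 37.2 CPM in Tom- and 8.56, 54.8 and 97.1 CPM in Tom+. Replicate 1 was the lowest in both fractions, so that the groups overlapped, and it rose in every pair with a change of 1.32 (SE 0.08, adjusted p = 4.37e-07 with and 0.558 without the block). Cyp4b1 was at 18.1, 13 and 15.8 CPM in Tom- and 6.58, 5.94 and 7.75 CPM in Tom+ and Cyp2j9 at 13.4, 14 and 23.6 CPM in Tom- and 7.47, 6.59 and 8.33 CPM in Tom+. Both fell without overlap, with changes of -1.21 (SE 0.12, adjusted p = 2.11e-05 with and 0.0126 without the block) and -1.14 (SE 0.13, adjusted p = 5.10e-05 with and 0.0263 without the block). Of 33 phase II conjugation genes 10 fell and 4 rose (0 rose and 1 fell without the block, 1 and 6 without replicate 2), with the glucuronosyltransferase Ugt1a9 at -0.45 and Papss2, which makes the sulfate donor, at 0.31 (adjusted p = 1.77e-04 and 0.00256, the latter 0.0666 without replicate 2). Of 18 carboxylesterases and lipases, 9 fell and 1 rose, Ces2c (0 rose and 2 fell without the block, 1 and 4 without replicate 2). Many members of these families have close copies between which reads are divided, and their values are uncertain for that reason.

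Glutathione and antioxidant genes were for the most part higher. Of 48 genes of glutathione metabolism and NRF2 targets, 25 rose and 2 fell (2 rose and 0 fell without the block, 16 and 1 without replicate 2), with a median of 0.20. Gstm3, a glutathione S-transferase, was at 59, 127 and 392.5 CPM in Tom- and 168, 267 and 784 CPM in Tom+. Replicate 3 was the highest in both fractions, so that the groups overlapped, and the change was 1.19 (SE 0.09, adjusted p = 2.11e-05 with and 0.552 without the block). Gstm1, Gstm2 and Gsta3 had changes of 0.70, 0.84 and 0.61 (adjusted p = 6.84e-06, 3.21e-05 and 2.01e-05). Txnrd1, the cytosolic thioredoxin reductase and an NRF2 target, was at 134, 137 and 152 CPM in Tom- and 175, 187 and 199 CPM in Tom+, without overlap and with a change of 0.41 (SE 0.05, adjusted p = 1.61e-04 with and 0.0416 without the block). Nfe2l2, which encodes NRF2, was at 59, 62.1 and 71.6 CPM in Tom- and 63.4, 57.9 and 67.3 CPM in Tom+, with a change of -0.03 (adjusted p = 0.797). The 2 falls were Gstk1 and Txnip, the inhibitor of thioredoxin, the latter with -0.49 (SE 0.07, adjusted p = 2.72e-04 with and 0.289 without the block). Of 26 alcohol and aldehyde dehydrogenases 11 rose and 4 fell (2 rose and 1 fell without the block, 6 and 3 without replicate 2). Adh4 and Aldh3a2, which oxidize retinol and fatty aldehydes, were at 57, 45 and 88.3 CPM in Tom- and 122.9, 96.8 and 137 CPM in Tom+ and at 259, 293 and 363 CPM in Tom- and 466, 518 and 557 CPM in Tom+, respectively. Neither gene overlapped between the groups, with changes of 0.95 (SE 0.09, adjusted p = 2.95e-05 with and 0.101 without the block) and 0.76 (SE 0.06, adjusted p = 4.80e-06 with and 0.0229 without the block).

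Cell cycle inhibitors did not move in 1 direction. Of 24 genes of cell cycle inhibition and senescence, 3 rose and 5 fell (2 rose and 0 fell without the block, 4 and 3 without replicate 1, 2 and 1 without replicate 2, 3 and 2 without replicate 3), close to the shares over all genes. The 3 that rose were Wee1, Cdkn1c and Rbl2. Wee1 (ENSMUSG00000031016, chromosome 7, 110122046 to 110143286), a kinase that holds cells before mitosis, was at 1.85, 1.2 and 2.14 CPM in Tom- and 3.43, 4.7 and 6.04 CPM in Tom+. The groups did not overlap, and the change was 1.43 (SE 0.22, adjusted p = 5.08e-04 with and 0.0293 without the block). Cdkn1c (ENSMUSG00000037664, chromosome 7, 143458339 to 143461050), the cyclin-dependent kinase inhibitor p57, was at 8.81, 10.3 and 9.73 CPM in Tom- and 17.8, 19.6 and 16.5 CPM in Tom+, again without overlap, and its change was 0.90 (SE 0.10, adjusted p = 5.29e-05 with and 0.0126 without the block). Cdkn1a, which encodes p21, was at 63.3, 61 and 48 CPM in Tom- and 61.9, 54.3 and 49.6 CPM in Tom+, with a change of -0.05 that did not pass (adjusted p = 0.633). Gadd45g, a stress-induced gene, was at 29.2, 25.9 and 38.6 CPM in Tom- and 22.3, 11.4 and 16.9 CPM in Tom+ and fell with a change of -0.91 (SE 0.16, adjusted p = 0.00483 with and 0.101 without the block, and 0.0602 without replicate 2). Glb1, the lysosomal beta-galactosidase, was at 16.2, 20.9 and 19.97 CPM in Tom- and 11.6, 14.4 and 15.2 CPM in Tom+, without overlap and with a change of -0.47 (SE 0.09, adjusted p = 0.00266 with and 0.0899 without the block).

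A few proliferation genes rose. Of 42 genes, 7 rose and 0 fell (0 rose without the block, 4 without replicate 2, 2 without replicate 3), with a median of 0.29. Mki67, a marker of cycling cells, was at 5.2, 5.01 and 27.8 CPM in Tom- and 6.39, 5.92 and 37 CPM in Tom+, so that replicate 3 exceeded the others more than Tom+ exceeded Tom-, and the change was 0.33 (SE 0.10, adjusted p = 0.0333, and 0.0773 without replicate 2, and 0.323 without replicate 3). Ccnb1, a mitotic cyclin, was at 0.508, 0.532 and 6.06 CPM in Tom- and 1.29, 1.07 and 11.2 CPM in Tom+, with the same pattern and a change of 1.03 (SE 0.20, adjusted p = 0.00276, and 0.0687 without replicate 3). Ccnd1, the G1 cyclin that p16Ink4a opposes, was at 119, 118 and 207 CPM in Tom- and 197, 211 and 316 CPM in Tom+, with a change of 0.73 (SE 0.06, adjusted p = 5.91e-06 with and 0.199 without the block). Of 30 p53 targets 4 rose and 3 fell (1 rose and 0 fell without the block, 2 and 1 without replicate 2), and of 36 DNA repair genes 7 rose and 1 fell, Brca2 (0 rose and 0 fell without the block, 1 and 0 without replicate 2, 3 and 0 without replicate 3). Atm, the kinase that senses double-strand breaks, was at 11.7, 7.61 and 12.5 CPM in Tom- and 18.4, 15.7 and 15.9 CPM in Tom+, without overlap and with a change of 0.67 (SE 0.12, adjusted p = 0.00199 with and 0.0724 without the block).

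Of 54 genes of secreted cytokines, growth factors and proteases that passed the filter, out of 74 in the list, 14 fell and 4 rose (1 rose and 5 fell without the block, 4 and 5 without replicate 2), with a median of -0.21. The rises were those of Wnt5a, Tgfa, Pdgfc and Fgf1, all of them ligands. Tgfa, a ligand of the epidermal growth factor receptor, was at 8.99, 10.46 and 12.6 CPM in Tom- and 14.9, 18.7 and 20.9 CPM in Tom+, without overlap and with a change of 0.76 (SE 0.10, adjusted p = 1.38e-04 with and 0.0383 without the block). Wnt5a, a noncanonical Wnt ligand, was at 1.32, 0.895 and 0.878 CPM in Tom- and 3.85, 1.2 and 1.9 CPM in Tom+, with overlapping groups and a change of 1.07 (SE 0.27, adjusted p = 0.0124 with and 0.143 without the block, and 0.151 without replicate 1). Vegfa, the main growth factor of endothelium, was at 242, 306 and 206 CPM in Tom- and 166, 151 and 108 CPM in Tom+. Each Tom+ library lay below every Tom- library, and the change was -0.83 (SE 0.08, adjusted p = 4.23e-05 with and 0.0477 without the block). Of 14 ligands and receptors of the IL-6 family, 3 fell and 0 rose (1 fell without replicate 2). Clcf1, a cytokine of that family, was at 1.57, 1.85 and 1.8 CPM in Tom- and 0.743, 0.459 and 0.46 CPM in Tom+, without overlap and with a change of -1.65 (SE 0.32, adjusted p = 0.0027 with and 0.0262 without the block, and 0.0505 without replicate 2). Ctf1, another member of that family, was at 3.2, 2.43 and 2.63 CPM in Tom- and 2.94, 2.66 and 4.16 CPM in Tom+, with a change of 0.22 (adjusted p = 0.469), and Lif had 0, 0 and 0 counts in Tom- and 1, 6 and 0 counts in Tom+. By qPCR of sorted hepatocytes, another assay, the study reports both Lif and Ctf1 as higher in Tom+. Bmp6 and Bmp2, which induce hepcidin and which endothelium makes, were at 3.88, 4.48 and 4.39 CPM in Tom- and 2.09, 1.73 and 2.03 CPM in Tom+ and at 18.9, 23.9 and 17 CPM in Tom- and 10.3, 13 and 12.2 CPM in Tom+, respectively. Both fell, with changes of -1.12 (SE 0.19, adjusted p = 0.00108 with and 0.0194 without the block) and -0.75 (SE 0.10, adjusted p = 2.80e-04 with and 0.0292 without the block), together with the endothelial markers, and the part of endothelial RNA in these values was not tested.

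More male-biased genes fell than rose, and female-biased genes moved both ways. Of 29 genes of growth hormone signalling and male-biased expression, 16 fell and 1 rose, Susd4 (0 rose and 3 fell without the block), with a median of -0.25. Of these, 9 are also major urinary protein genes, all of which fell, and of the other 20 genes 7 fell and 1 rose. All 19 major urinary protein genes tested had a log2 fold change below 0, with 16 that fell (6 fell without the block) and a median of -0.65. The summed level of the urinary protein genes was 3610, 3080 and 2850 CPM in Tom- and 2310, 1990 and 1790 CPM in Tom+, a sum that does not depend on how reads were divided among these copies. Of 27 female-biased genes, 7 rose and 9 fell (0 rose and 0 fell without the block, 3 and 8 without replicate 2), with a median of -0.15. A1bg, a plasma glycoprotein of female liver, was at 661, 655 and 85.3 CPM in Tom- and 248, 244 and 34.2 CPM in Tom+. Replicate 3 was the lowest in both fractions, so that the groups overlapped, and the change was -1.39 (SE 0.06, adjusted p = 1.73e-08 with and 0.489 without the block). Ghr, the growth hormone receptor, was at 445, 441 and 393 CPM in Tom- and 443, 492 and 384 CPM in Tom+, with a change of 0.04 (adjusted p = 0.657).

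Lysosomal and antigen presentation genes fell in part. Of 40 genes of lysosome and autophagy, 18 fell and 3 rose (0 rose and 6 fell without the block, 6 and 13 without replicate 1, 0 and 9 without replicate 2), with a median of -0.12. The rises were those of Bnip3, Sqstm1 and Gabarapl1, which serve autophagy. Ctsc, a lysosomal protease of the periportal list, was at 207, 163 and 162 CPM in Tom- and 93, 70.2 and 79.8 CPM in Tom+, without overlap and with a change of -1.13 (SE 0.06, adjusted p = 1.29e-07 with and 0.0111 without the block). Of 25 antigen presentation genes, 13 fell and 1 rose, Psme1 (0 rose and 2 fell without the block, 0 and 7 without replicate 2), with a median of -0.36. H2-K1, a class I molecule, was at 1901, 1789 and 1866 CPM in Tom- and 1349, 1149 and 1493 CPM in Tom+, without overlap and with a change of -0.48 (SE 0.07, adjusted p = 2.29e-04 with and 0.0525 without the block). The class II genes H2-Eb1 and H2-DMa, which macrophages and endothelium express, were at 2.34, 1.51 and 2.91 CPM in Tom- and 1.66, 0.611 and 1.32 CPM in Tom+ and at 0.812, 1.23 and 1.29 CPM in Tom- and 0.52, 0.218 and 0.418 CPM in Tom+, respectively. They fell, with changes of -0.95 and -1.51 (adjusted p = 0.0179 and 0.022, and 0.135 and 0.196 without replicate 2 and 0.104 and 0.0906 without replicate 3) beside the lower endothelial and, in replicates 1 and 2, macrophage markers, and the part of these cells was not tested. Of 45 interferon response genes 7 rose and 6 fell (0 rose and 1 fell without the block, 2 and 3 without replicate 2, 4 and 3 without replicate 3), near the shares over all genes. Stat2, which carries the interferon signal to the nucleus, was at 103, 127 and 124 CPM in Tom- and 70.9, 60.4 and 66.8 CPM in Tom+, without overlap and with a change of -0.83 (SE 0.09, adjusted p = 6.97e-05 with and 0.0126 without the block).

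Some genes of the matrix and of cell adhesion fell, beside the markers of endothelium. Of 34 extracellular matrix genes 8 fell and 0 rose (0 rose and 1 fell without the block, 2 and 5 without replicate 1, 0 and 4 without replicate 2, 0 and 14 without replicate 3). Sparc, a matrix protein of stellate and endothelial cells, had 59.4, 89.9 and 84.4 CPM in Tom- and 28.2, 56.8 and 59.6 CPM in Tom+, with overlapping groups and a change of -0.74 (SE 0.09, adjusted p = 2.72e-04 with and 0.25 without the block). Vtn, the hepatocyte plasma protein vitronectin, was at 4179, 3661 and 3473 CPM in Tom- and 2559, 2401 and 2642 CPM in Tom+, without overlap and with a change of -0.57 (SE 0.07, adjusted p = 8.16e-05 with and 0.0263 without the block). Trem2, a receptor of macrophages, rose by 1.52 (adjusted p = 0.0309), from 0.152, 0.056 and 0.729 CPM to 0.273, 0.262 and 2.34 CPM, and without replicate 3 its adjusted p was 0.317. Anxa2, a phospholipid-binding annexin, was at 9.34, 7.55 and 11.4 CPM in Tom- and 18.3, 16.7 and 21.5 CPM in Tom+, without overlap and with a change of 1.01 (SE 0.10, adjusted p = 2.41e-05 with and 0.0194 without the block). Of 35 genes of adhesion and junctions, 11 fell and 3 rose, Tenm3, Cldn2 and Cdh2 (2 rose and 4 fell without the block), and the periportal cadherin Cdh1 fell with a change of -0.96 (SE 0.08, adjusted p = 6.64e-06 with and 0.014 without the block).

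Mitochondrially encoded transcripts were lower in Tom+. All 13 had a log2 fold change below 0, 7 fell (13 fell without replicate 1, 4 without replicate 3) and 6 of them were DEGs, with a median of -0.76. Their summed level was 34800, 45300 and 55800 CPM in Tom- and 27700, 22900 and 28900 CPM in Tom+, so that the groups did not overlap. mt-Co3, a subunit of cytochrome c oxidase, was at 3351, 3946 and 4637 CPM in Tom- and 1854, 1860 and 2247 CPM in Tom+, without overlap and with a change of -0.99 (SE 0.06, adjusted p = 8.25e-07 with and 0.0146 without the block). mt-Nd3, a subunit of complex I, had the largest fall with -1.23 (SE 0.06, adjusted p = 4.64e-08 with and 0.0051 without the block). Of 78 nuclear genes of oxidative phosphorylation, 6 rose and 5 fell (0 rose and 0 fell without the block, 2 and 3 without replicate 1, 0 and 3 without replicate 2, 2 and 4 without replicate 3), with a median of 0.06. Over the chromosomes, 15 of the 36 features tested on the mitochondrial genome (41.67%) were DEGs, all of them lower.

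**Figure D5:**
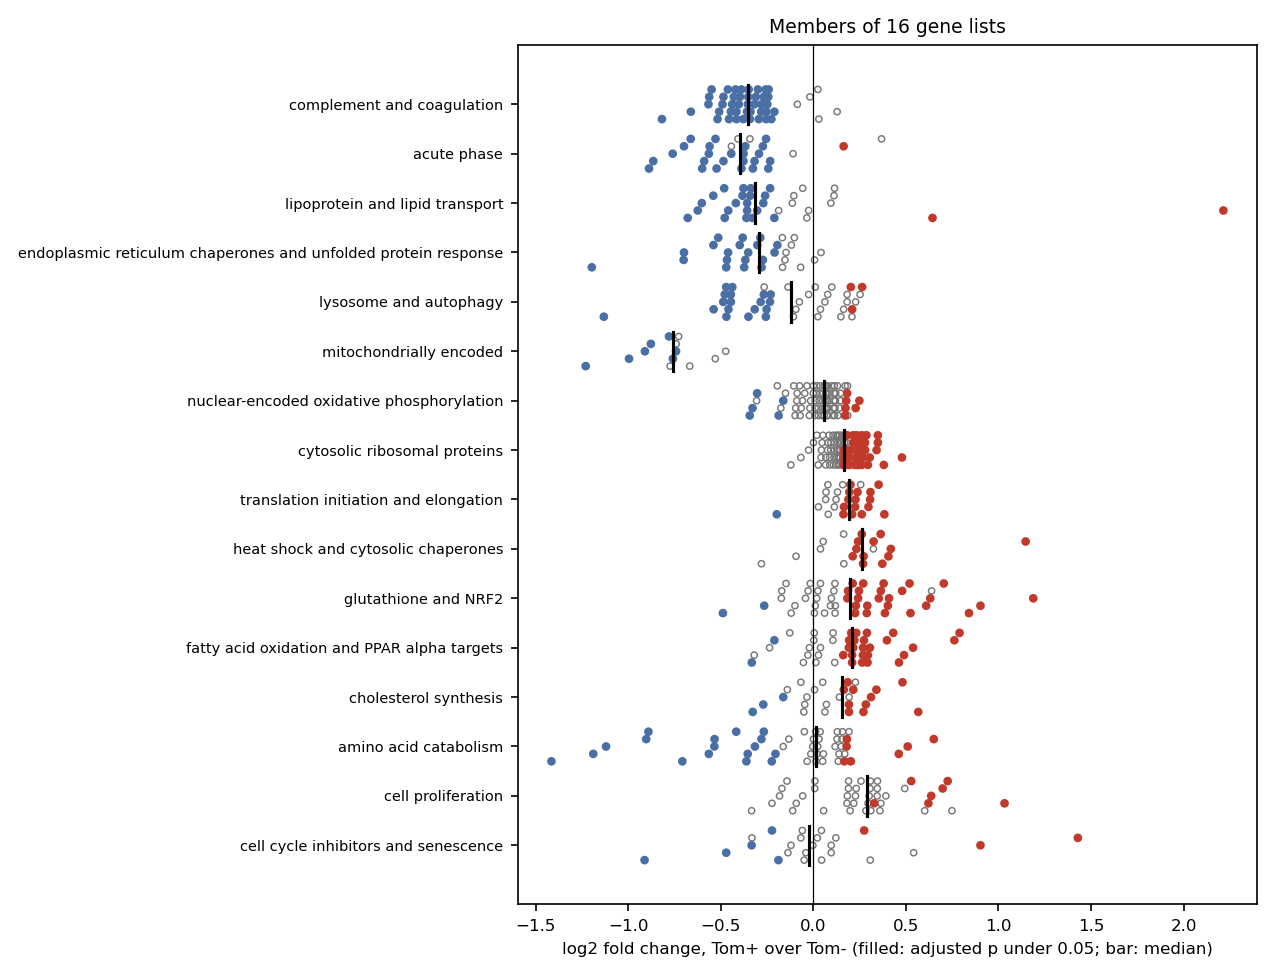
Log2 fold change of Tom+ over Tom- (x axis) of the members of 16 gene lists, with members at an adjusted p under 0.05 filled and the median of each list as a bar. Nearly all members of complement and coagulation and all mitochondrially encoded genes lie to the left of 0, and 79 of 82 ribosomal protein genes lie to the right of it, whereas amino acid catabolism and the cell cycle inhibitors spread to both sides.

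Neat1 and a pair of splicing-related cyclins fell as well. Neat1 (ENSMUSG00000092274, chromosome 19, 5824708 to 5845478), the long noncoding RNA that forms paraspeckles, was at 132, 200 and 251 CPM in Tom- and 49.3, 44 and 56.2 CPM in Tom+. Each Tom+ library lay below every Tom- library, with a change of -1.92 (SE 0.19, adjusted p = 0.00679 with and 0.0126 without the block). In the oil libraries it was between 47.9 and 203 CPM (median 73.2), a range that overlapped both CCl4 groups. Ccnl1 and Ccnl2, cyclins that act on splicing, were at 33.9, 47.8 and 45.6 CPM in Tom- and 18.8, 18.9 and 17.7 CPM in Tom+ and at 120.4, 215 and 196 CPM in Tom- and 75, 77.8 and 77 CPM in Tom+, respectively. Both fell without overlap, with changes of -1.18 (SE 0.10, adjusted p = 8.60e-06 with and 0.0111 without the block) and -1.17 (SE 0.18, adjusted p = 0.0226 with and 0.0203 without the block, and 0.0522 without replicate 3). Malat1, another nuclear noncoding RNA, was at 112, 175 and 133 CPM in Tom- and 114, 77.2 and 87.4 CPM in Tom+, with overlapping groups and a change of -0.59 (adjusted p = 0.329). Of 22 snoRNA features tested, a family chosen by symbol, 7 fell and 0 rose (4 fell without the block, 1 without replicate 2, 4 without replicate 3), although RNAs without a polyA tail are not measured well in polyA libraries.

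Transporters moved in both directions. Of 52 membrane transporters 14 rose and 23 fell (4 rose and 5 fell without the block, 9 and 16 without replicate 2). Slc13a3, a dicarboxylate transporter, was at 21.2, 19.7 and 29.9 CPM in Tom- and 69.5, 43.8 and 67 CPM in Tom+, without overlap and with a change of 1.34 (SE 0.10, adjusted p = 8.38e-06 with and 0.0224 without the block). Abcb1b, a multidrug exporter, was at 0.939, 0.588 and 0.878 CPM in Tom- and 2.02, 1.62 and 1.69 CPM in Tom+, without overlap and with a change of 1.15 (SE 0.28, adjusted p = 0.00913 with and 0.0557 without the block, and 0.0951 without replicate 2), and Mfsd2a, a transporter of lysophospholipids, was at 26.4, 53.8 and 40.3 CPM in Tom- and 9.81, 13 and 10.8 CPM in Tom+. The latter did not overlap between the groups and fell with a change of -1.79 (SE 0.11, adjusted p = 8.25e-07 with and 0.0179 without the block). Of 25 hypoxia response genes 11 rose and 2 fell (3 rose and 1 fell without the block, 7 and 1 without replicate 1, 5 and 1 without replicate 2), and Ndrg1 and Egln3, targets of hypoxia-inducible factors, had changes of 0.81 (SE 0.09, adjusted p = 3.28e-05 with and 0.0213 without the block) and 0.81 (SE 0.11, adjusted p = 1.87e-04 with and 0.014 without the block), whereas Vegfa, also on this list, was lower. Of 25 nuclear receptors 7 rose and 2 fell (3 rose and 0 fell without the block, 4 and 2 without replicate 1, 4 and 1 without replicate 2, 5 and 0 without replicate 3), with Ahr, the dioxin receptor, at 31.1, 35.3 and 32.4 CPM in Tom- and 53.6, 58.4 and 53.7 CPM in Tom+. Ahr did not overlap between the groups, with a change of 0.74 (SE 0.07, adjusted p = 1.00e-05 with and 0.0111 without the block).

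Among regulators of the cell, most members did not pass the test. Of 31 hepatocyte transcription factors 4 rose and 5 fell (0 rose and 1 fell without the block, 2 and 4 without replicate 1, 2 and 1 without replicate 2), and Tbx3, a transcriptional repressor, had a change of 0.99 (SE 0.10, adjusted p = 3.10e-05 with and 0.153 without the block). Of 20 clock genes 1 rose, Clock, and 3 fell (0 rose and 1 fell without the block), with Per2 at 11.3, 11.6 and 12.3 CPM in Tom- and 7.35, 6.44 and 6.93 CPM in Tom+ and a change of -0.77 (SE 0.12, adjusted p = 5.36e-04 with and 0.0173 without the block). Of 27 immediate early genes 2 rose and 4 fell (1 rose and 0 fell without the block, 1 and 1 without replicate 2, 4 and 2 without replicate 3), of 30 apoptosis genes 4 rose and 0 fell (0 rose without the block, 1 without replicate 2), and of 27 targets of TGF beta, YAP and Notch 3 rose and 2 fell (0 rose and 0 fell without the block, 0 and 0 without replicate 2). Ccn2, a target of YAP, was at 3.66, 4.25 and 5.23 CPM in Tom- and 2.53, 1.86 and 2.63 CPM in Tom+, without overlap and with a change of -0.90 (SE 0.19, adjusted p = 0.00465 with and 0.0522 without the block, and 0.076 without replicate 2). Of 22 genes of iron and BMP-SMAD signalling 8 fell and 3 rose, the latter Fth1, Ftl1 and Alas1 (0 rose and 3 fell without the block, 1 and 5 without replicate 2), and of 14 genes of metals 5 fell and 1 rose, Atp7a (0 rose and 1 fell without the block, 0 and 3 without replicate 2). Of 25 tetraspanins and vesicle genes 6 fell and 3 rose (0 rose and 2 fell without the block, 1 and 3 without replicate 2), of 35 cytoskeleton genes 5 rose and 3 fell (1 rose and 0 fell without the block, 1 and 1 without replicate 2, 4 and 5 without replicate 3), and of 15 annexin and S100 genes 6 rose and 0 fell (1 rose without the block, 3 without replicate 2).

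A list of 18 genes was taken from the study's account of its other assays of Tom+ hepatocytes, and it does not hold every gene that the study names there. Of the 18, 16 were tested here. As they were chosen with the study's own samples in view, their counts are not independent evidence of direction: 10 rose and 5 fell (3 rose and 2 fell without the block). The 10 that rose were Wee1, Gstm3, Wnt5a, Anxa2, Cdkn1c, Gpx3, Cd63, Gstm1, Gsta3 and Nqo1. Cd63, a tetraspanin of vesicles, was at 4.34, 5.26 and 10.8 CPM in Tom- and 7.82, 8.28 and 18.2 CPM in Tom+. Its level was highest in replicate 3 of both fractions, so that the groups overlapped, with a change of 0.75 (SE 0.12, adjusted p = 6.73e-04 with and 0.413 without the block). Gpx3, a secreted glutathione peroxidase, was at 1.14, 1.65 and 2.08 CPM in Tom- and 1.7, 3.87 and 3.84 CPM in Tom+, with overlapping groups and a change of 0.90 (SE 0.22, adjusted p = 0.00955 with and 0.164 without the block, and 0.14 without replicate 2). The 5 that fell were Clcf1, Txnip, and Cyp2f2, Hamp and Igfbp2, which the study uses as markers of zones 1 and 2. Ctf1 did not pass.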

How the data were processed

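Tom+ and Tom- hepatocytes were sorted from CCl4-treated p16-Tom mice, and polyA RNA was sequenced from strand-specific libraries. Per the submitters' processing notes, reads were trimmed with fastp 0.23.2 and aligned to mm10 with HISAT2 2.1.0, and DESeq2 1.42.1 was among the authors' tools. The study's methods name TPMcalculator for TPM values and do not say whether it made the deposited counts, and the strand setting and the annotation release were not given in the sources used here. The authors deposited 1 table of expected counts per gene, not normalized, in which 30.4% to 32.4% of the nonzero values of the 6 CCl4 libraries were not whole (tolerance 1e-06), so that reads were divided between features. All 12 sample columns were matched to samples by name, and 54723 of the 54839 features were matched to a symbol.

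The expected counts were rounded to whole numbers. Counts had been assumed when the test was chosen, and the same test was kept after rounding. edgeR 4.0.16 in R 4.3.3 was used with TMM scaling, filterByExpr and the robust quasi-likelihood fit and test on the 6 CCl4 libraries, with fraction and replicate number as terms (residual df 2, biological coefficient of variation 0.103), and p-values were adjusted over all genes tested by the Benjamini-Hochberg method. Total counts were 41701132, 37568669 and 49503716 in Tom- and 75331523, 43082848 and 46318030 in Tom+. The replicate numbers come from the labels. Deviations from the group means correlated at 0.463, 0.417 and 0.615 between same-numbered libraries and at -0.453 to 0.0388 between the others, over 13210 genes with a mean of at least 1 CPM, so the numbers were treated as pairs. The sources do not say that same-numbered libraries came from 1 mouse. The p-values of the main fit set the difference between the fractions against its spread over these pairs. That spread was moderated toward a trend over all genes (median prior df 11.1, residual df 2). For most genes the p-values therefore rest more on other genes than on the gene's own pairs. Spread that same-numbered libraries share is taken out by the block and does not enter the p-values.

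On simulated counts for 16014 genes of this comparison, the fit called as DEGs 69% of genes changed 2-fold and 95% of genes changed 4-fold (164 of 200 in all), with 8 unchanged genes called. The counts were drawn as whole numbers from the means, the block and the dispersions of this same fit. The model was therefore correct for them by construction, and the shares do not cover divided reads or a wrong block.

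The members and gene lists were chosen with earlier results of these data known, and so were the families given by symbol. Genes were named by a rule: the 15 largest log2 fold changes of DEGs in each direction with a mean of at least 1 CPM, the 10 largest absolute differences of mean CPM among genes past the adjusted p, the 3 largest changes of each list in each direction among those past it, the genes the study names, and the 3 most abundant markers of each cell type. Any other gene was named after its values were seen, and some list members are not reported here by name. Alternatives were the fit without the replicate block, fits over 12 libraries, DESeq2 1.42.0, limma-voom (limma 3.58.1), RLE scaling, no filter, a mean of at least 50 counts, and leaving out each pair. Promoters were searched with Python 3.11.15.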

Additional observations from a re-analysis of the deposited data

How the results depend on the processing

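Same-numbered libraries deviated together, and the number of calls depended on the replicate block. Without the block, 43 DEGs were higher and 302 lower, and 216 and 582 genes passed the adjusted p alone. Over all 12 libraries without the block, these counts were 39 and 298, and 336 and 654. With the block, DESeq2, limma-voom, RLE scaling, both other filters and the fit over 12 libraries gave 115 to 174 DEGs higher and 541 to 712 lower, within 1.5 times of the reported 142 and 696. Leaving out each pair in turn gave 84 to 173 higher and 319 to 771 lower DEGs, and 541 to 1282 higher and 905 to 1970 lower genes at the adjusted p alone, with the lowest counts without replicate 2. The cause was not tested, and each of these fits had fewer libraries. Of 179 of the genes named, 85 lost the call and 1 changed sign without the block, and 39 and 4 without replicate 2.

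The log2 fold change of tdTomato was 3.09, and it missed the threshold at 3.10 over 12 libraries with the block, at 2.99 without it and at 3.10 without the filter on low counts. It lay between 2.88 and 3.47 when each pair was left out, missing the threshold without replicates 1 and 3, and the cause was not tested. Some genes that did not pass changed sign when a pair was left out, with a range of -0.097 to 0.010 for Cdkn1a, -0.003 to 0.408 for Ctf1, -0.018 to 0.077 for Ghr, -0.094 to 0.009 for Nfe2l2 and -0.353 to 0.076 for Wnt2. Lyz2, whose level was high in Tom+ replicate 3, ranged from -0.38 without that replicate to 0.783 without replicate 1. Rspo3 turned to 0.113 without the block, 0.141 over 12 libraries without it and 0.027 by limma-voom, and ranged from -0.695 to 0.558 when a pair was left out. The median of the cholangiocyte markers, with 5 tested, turned to 0.065 and 0.105 over 12 libraries with and without the block, to 0.045 with a mean of at least 50 counts, and ranged from -0.350 to 0.508 when a pair was left out. That of the mitochondrial folate, serine and ATF4 list turned to -0.002 without the block and ranged from -0.005 to 0.056 when a pair was left out.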

Other observations

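Families grouped by symbol after the results were seen, and therefore given as counts only, held further changes, with counts in parentheses for the fits in which they moved by over 1.5 times and by at least 2 genes. Of 249 solute carrier genes tested, 17 rose and 81 fell (5 rose and 21 fell without the block, 9 and 41 without replicate 2). Of 20 semaphorins and plexins, ligands and receptors of cell guidance, 11 fell and 0 rose (3 fell without the block, 6 without replicate 2), of 35 cadherins and protocadherins 8 fell and 1 rose (1 rose and 2 fell without the block, 1 and 5 without replicate 1, 1 and 5 without replicate 2), of 22 potassium channel genes 7 fell and 0 rose (1 fell without the block, 3 without replicate 2), and of 33 serpins, the protease inhibitors that include many plasma proteins, 19 fell and 1 rose (1 rose and 5 fell without the block, 1 and 10 without replicate 2). The part of RNA from other liver cells in these falls was not tested. Of 8 subunits of TRiC, the cytosolic chaperonin, 5 rose and 0 fell (0 rose without the block, 1 without replicate 1, 1 without replicate 2). Of 80 mitochondrial ribosomal protein genes, which the nucleus encodes, 6 rose and 1 fell (0 rose and 0 fell without the block, 0 and 0 without replicate 2), against 10 falls and 0 rises among 21 mitochondrial tRNA features (1 fell without the block, 17 without replicate 1, 6 without replicate 2, 6 without replicate 3).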
